A study of Mus musculus with 18 samples.

Results

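The protein-coding genes of mouse chromosome 6 were followed in order of position through nuclear RNA of embryonic stem cells. Members were the GENCODE M21 protein-coding genes of the chromosome with at least 10 counts in at least 2 of the 18 libraries, without genes whose symbols begin with Zfp, Hist, Rpl or Rps. Members were selected on their read counts and on place alone, not on a change between groups. The rule gave 741 members of 1112 coding genes on the chromosome, and 15276 coding genes over all chromosomes. It left out 352 genes for low counts and 19 by symbol. The chromosome was taken up with earlier results of these data known, so its overall medians are given as descriptions with no test. At the edge of the count rule, 13 members had exactly 10 counts in their second-highest library and 16 genes left out had 9.

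The cells were C57BL/6 mouse embryonic stem cells kept in serum with LIF, CHIR99021 (an inhibitor of the kinase GSK3) and PD0325901 (an inhibitor of the kinase MEK). The Mettl3 experiment had a control and lines labelled KO1 and KO2, 2 libraries each, and the Ythdc1 experiment a control and cells labelled cKO, 2 libraries each after 0, 3 or 6 h of actinomycin D at 5 µg/ml. All Mettl3 libraries carried the 0 h label, and the main comparisons used the 10 libraries at 0 h. The labels do not say how the alleles were made, whether KO1 and KO2 are single clones, or whether same-group libraries came from separate cultures, so p-values refer to the spread between the libraries at hand, and that spread may be technical. KO1, KO2 and cKO below are names of labels.

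METTL3 is the catalytic subunit of the enzyme that writes N6-methyladenosine on RNA, and YTHDC1 is the nuclear protein that reads this mark. Mouse chromosome 6 carries genes that stem cells depend on, among them the pluripotency factor Nanog and the polycomb methyltransferase Ezh2, together with housekeeping enzymes such as Gapdh, the HoxA cluster and the imprinted genes Peg10 and Mest. Many neighbouring genes of a chromosome belong to unrelated pathways, though clusters such as HoxA hold related ones. A profile along position shows whether RNA levels move by place, and does not by itself separate place from function. Only RNA was measured here. In bulk samples, fewer cells with a transcript and less RNA per cell cannot be told apart.

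Promoter sequences of 5 members that recur in the results are shown as examples: Cttnbp2, which had higher scaled read counts in KO1 and KO2 than in the Mettl3 control, and 4 members with lower ones in KO2. Each run is the 150 bases upstream of the transcription start, read 5′ to 3′ on the strand of the gene, from RefSeq (GRCm38.p6). Capitals mark CCAAT or its reverse complement ATTGG, the core of a common promoter element.

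Cttnbp2: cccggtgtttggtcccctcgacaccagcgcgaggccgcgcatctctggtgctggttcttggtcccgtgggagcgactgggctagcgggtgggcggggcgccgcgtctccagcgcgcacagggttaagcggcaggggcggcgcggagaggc
Hnrnpa2b1: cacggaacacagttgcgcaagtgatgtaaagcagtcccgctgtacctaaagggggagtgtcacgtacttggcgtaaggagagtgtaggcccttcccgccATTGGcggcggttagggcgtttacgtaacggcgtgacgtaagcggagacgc
Hk2: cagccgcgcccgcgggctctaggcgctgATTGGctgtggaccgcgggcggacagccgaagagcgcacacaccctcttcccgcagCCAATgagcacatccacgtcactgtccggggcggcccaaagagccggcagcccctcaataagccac
Mcm2: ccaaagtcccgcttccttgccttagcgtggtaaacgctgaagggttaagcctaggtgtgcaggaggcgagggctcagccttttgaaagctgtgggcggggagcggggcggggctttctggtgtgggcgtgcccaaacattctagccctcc
Nanog: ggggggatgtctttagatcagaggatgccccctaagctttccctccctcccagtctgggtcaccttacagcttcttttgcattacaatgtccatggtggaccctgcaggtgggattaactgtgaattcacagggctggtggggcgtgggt

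The windows lie at chr6:18514870-18515019 on the minus strand (Cttnbp2), chr6:51469895-51470044 on the minus strand (Hnrnpa2b1), chr6:82774455-82774604 on the minus strand (Hk2), chr6:88898781-88898930 on the minus strand (Mcm2) and chr6:122707339-122707488 on the plus strand (Nanog), outside every annotated gene. The sequence CCAAT, on either strand, occurred in 27.2% of the 615 members matched in the RefSeq table, in 27.7% of 11199 matched coding genes of other chromosomes and in 25.3% of all 27025 promoters of that length. The GC box GGGCGG, on either strand, occurred in 50.4%, 51.1% and 29.0% of them. Median GC content was 61.3% for members and 62.7% for coding genes elsewhere. Members and other coding genes thus had similar shares, and a match describes letters in a window, not a bound site.

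Gene reads ranged from 4950973 to 30989044 per library. All 8 stem cell markers examined (Pou5f1, Sox2, Nanog, Esrrb, Zfp42, Klf4, Dppa5a and Tdgf1) had reads in every library. Mettl3 stood at 34.1 and 29.7 CPM (reads scaled to library size and TMM factor, here over all 18 libraries) in its control, 30.9 and 29.5 in KO1, and 21.4 and 20.8 in KO2, so its RNA was still present in both lines, and counts over a whole gene do not show whether an edited transcript is functional. Levels are CPM on the TMM scale and are compared only between libraries of the same gene. Changes are log2 fold changes with their standard errors (SE), from edgeR's quasi-likelihood test with Benjamini-Hochberg adjustment over all genes tested, called below an adjusted p of 0.05. With TMM scaling, a change is relative to the typical gene of the library. Scaling to the spike-in RNA raised all changes of KO2 against the control by about 0.56 and of KO1 by 0.18 (the shift of the median of all genes), so negative values smaller than that shift change sign on the spike-in scale. This scaling moves all genes by nearly the same amount, so the difference between members and other genes could hardly move and is not checked by it. The strand setting of the counting is not given in the sources used here, and 411 members overlap another annotated gene, Ezh2, Gapdh, Chd4, Luc7l2, Cct7, Hk2 and Mest among them, so their counts may hold reads of the neighbour.

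In KO2, chromosome 6 genes were lower than in the Mettl3 control as a body, and a central stretch of the chromosome was lowest. Of 705 members tested (36 did not pass the filter on low counts), 403 fell and 92 rose. Over all 21802 genes tested, 26.4% fell and 24.4% rose, while among members these shares were 57.2% and 13.0%. The median change of members was -0.40, and that of 13963 coding genes elsewhere was -0.01. The difference between these medians was -0.38, which corresponds to a level 0.766 times that of other genes. Log2 levels of each library gave -0.366 and -0.371 for the KO2 libraries. The SD of 0.005 (n = 2 in each group) comes from such library values and adds the variances of both groups. An SD given below beside a difference in medians is of this kind. Changes were below 0 in 73.5% of members and in 50.9% of other coding genes. Scaled to spike-in reads, the split was 42.7% higher and 17.6% lower among members and 56.7% and 6.69% among all genes.

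In KO1, by contrast, the chromosome as a body sat where other genes sat. In KO1 against the same control 213 members rose and 181 fell. These were 30.2% and 25.7% of members, beside 23.9% and 22.2% of all genes tested and 29.9% and 24.1% of coding genes elsewhere. The median change of members was 0.01, and the difference from other coding genes was -0.02 (SD 0.013, n = 2). It was -0.05 without control replicate 1 and -0.03 without KO1 replicate 2. With spike-in scaling 44.3% rose and 14.5% fell, beside 34.8% and 13.7% of all genes. The direct comparison of the lines gave 381 members higher in KO1 and 83 lower, or 54.0% and 11.8%, against 24.5% and 21.6% of all genes. With spike-in scaling these shares were 30.9% and 29.1%, beside 7.63% and 48.1%. The median was 0.40 for members and 0.02 for coding genes elsewhere.

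**Figure D1:**
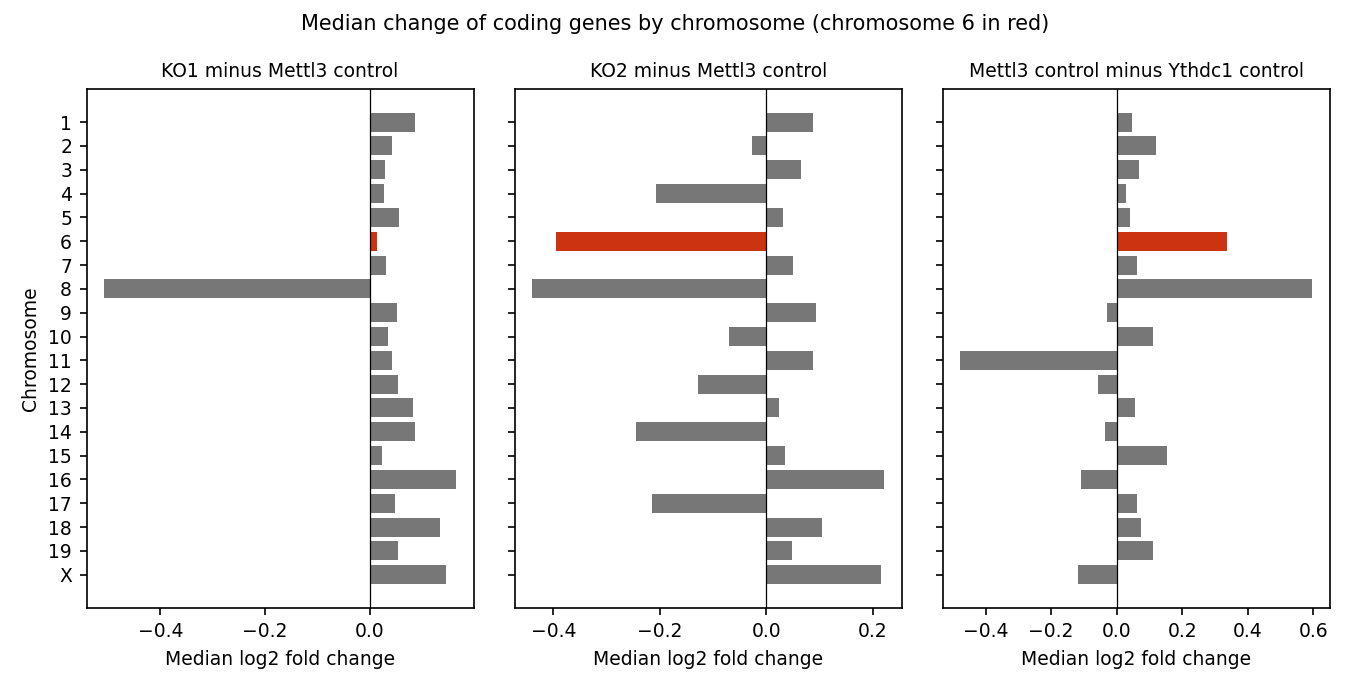
Median log2 fold change (TMM scale) of coding genes on each chromosome, for KO1 and KO2 against the Mettl3 control and for the Mettl3 control against the Ythdc1 control at 0 h; bars start at 0 and chromosome 6 is red. The chromosome 6 bar is at 0.01 in KO1, -0.40 in KO2 and 0.34 between the controls; chromosome 8 is low in both lines, at -0.51 and -0.44.

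Chromosome 6 was not the only chromosome to stand off. In KO2 the median of chromosome 8 was -0.44, of chromosome 14 -0.25, and of chromosomes 4 and 17 -0.21 each. In KO1 chromosome 8 alone among the autosomes and X lay below 0, at -0.51. The KO1 minus KO2 median was 0.40 for chromosome 6, 0.30 for chromosome 14, 0.23 for chromosome 17 and 0.21 for chromosome 4. Chromosome 6 thus had the largest gap between the lines among the autosomes and X.

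The share of coding reads that fell in members puts the same data without a fold change. Members took 5.89% and 5.90% of coding reads in the Mettl3 control libraries, 5.94% in each KO1 library, and 4.55% in each KO2 library. In the Ythdc1 control at 0 h they took 4.94% in each library. In the Ythdc1 libraries as a set, drug times included, the share stayed between 4.89% and 5.07%. The Mettl3 control and KO1 therefore held the high shares, KO2 the lowest, and the Ythdc1 libraries lay between them without overlap. The Wilson 95% interval of the KO2 shares ran from 4.54% to 4.56%, and such intervals cover counting error only, since reads had no molecular identifiers. With 2 libraries against 2, an exact permutation test cannot give a two-sided p below 0.33.

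The position profile of KO2 was divided into 3 stretches, a number chosen after seeing the data and not compared with others (2 breakpoints, at least 30 members in each). The first stretch ran from Samd9l to Ssmem1 (chr6:3372257-30520254, mm10), the middle stretch from there to the end of Gfpt1 (position 87092197) and the last stretch from Antxr1 to Bicd1 (chr6:87133853-149563329). Their 89, 260 and 356 tested members had median changes of -0.17, -0.66 and -0.31 in KO2 against the control. In the middle stretch 168 members fell and 20 rose, against 39 and 17 in the first and 196 and 55 in the last. The shares that fell were 64.6%, 43.8% and 55.1%, beside 26.4% of all genes. On the spike-in scale the medians of the first, middle and last stretch were 0.39, -0.10 and 0.25. That scaling moves all genes by nearly the same amount, so the order of the stretches was bound to stay. On that scale 77 members fell and 71 rose in the middle stretch, 5 fell and 48 rose in the first, and 42 fell and 182 rose in the last. Of all genes tested, 6.69% fell and 56.7% rose on that scale. In KO1 against the control the 3 medians were -0.01, 0.01 and 0.02. These bounds were set on KO2. Divided in the same way on its own changes, KO1 had medians of 0.02, -0.37 and 0.02. Its low part ran from Etv6 to Eps8 in the last stretch, with 30 members, the minimum allowed, of which 13 fell and 7 rose.

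**Figure D2:**
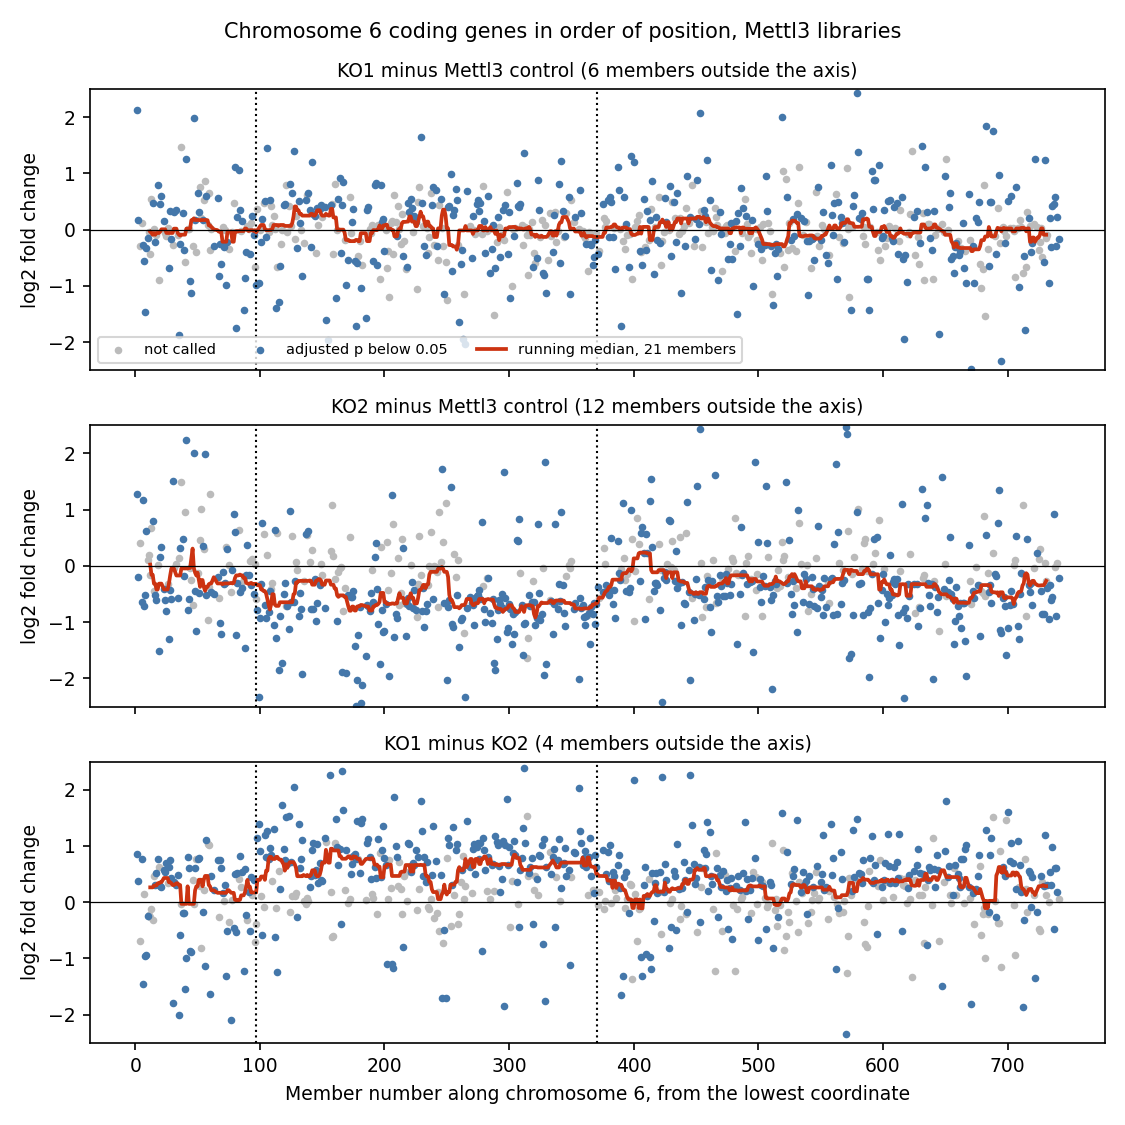
Log2 fold change (TMM scale) of each tested member against its number along the chromosome, for KO1 and KO2 against the Mettl3 control and for KO1 against KO2; blue points passed the test, the red line is the running median of 21 members, dotted lines bound the 3 stretches, and members beyond 2.5 are counted in each title. The red line lies near 0 over most of the chromosome in KO1 and below 0 over most of it in KO2, where it is lowest between the dotted lines.

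Bins of fixed size describe the same KO2 changes that set the stretches, so they are no separate check of them. In bins of 10 Mb, the lowest chromosome 6 bin in KO2 against the control lay at 40 to 50 Mb, with a median of -0.71 over 38 members, of which 25 fell. The lowest of 242 bins on other chromosomes with at least 10 genes had a median of -0.55. The bin at 10 to 20 Mb had a median of -0.04. The bin at 130 to 140 Mb, in the last stretch, had a median of -0.48. The bins at 30 to 40 and 50 to 60 Mb had medians of -0.45 and -0.43. The SD of the bin medians was 0.204 over the 15 bins of chromosome 6 and 0.210 over the 242 bins elsewhere. With 1 split in place of 2, the profile divided between Aplf, a DNA repair factor, and Efcc1, with medians of -0.53 before and -0.30 after. Aplf was at 21.3 and 19.3 CPM in the control and 15.9 and 13.4 in KO2 (log2 change -0.47, or 0.09 on the spike-in scale). Efcc1 was near 1 CPM in every Mettl3 library and was not called, except as higher in KO2 without control replicate 1 (edgeR adjusted p = 0.047).

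The stretches set on the KO2 change were then applied to each library, measured against the Ythdc1 control mean. For the middle stretch, the members' median minus that of other coding genes was -0.13 and -0.04 in the Mettl3 control, -0.07 and -0.07 in KO1, and -0.63 and -0.68 in KO2. For the last stretch it was 0.46 and 0.43, 0.46 and 0.47, and 0.20 and 0.19. For the first stretch it was 0.53 and 0.55, 0.53 and 0.64, and 0.42 and 0.51. The Mettl3 control and KO1 thus lay above the Ythdc1 control at both ends of the chromosome and close to it in the middle. KO2 lay above it at both ends by less and below it in the middle. The KO2 libraries did not overlap the Mettl3 control or KO1 libraries in any of the 3 stretches, though in the first the nearest values were 0.51 and 0.53. The stretches were set on the change between these same KO2 and Mettl3 control libraries, so this separation is no check of them.

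**Figure D3:**
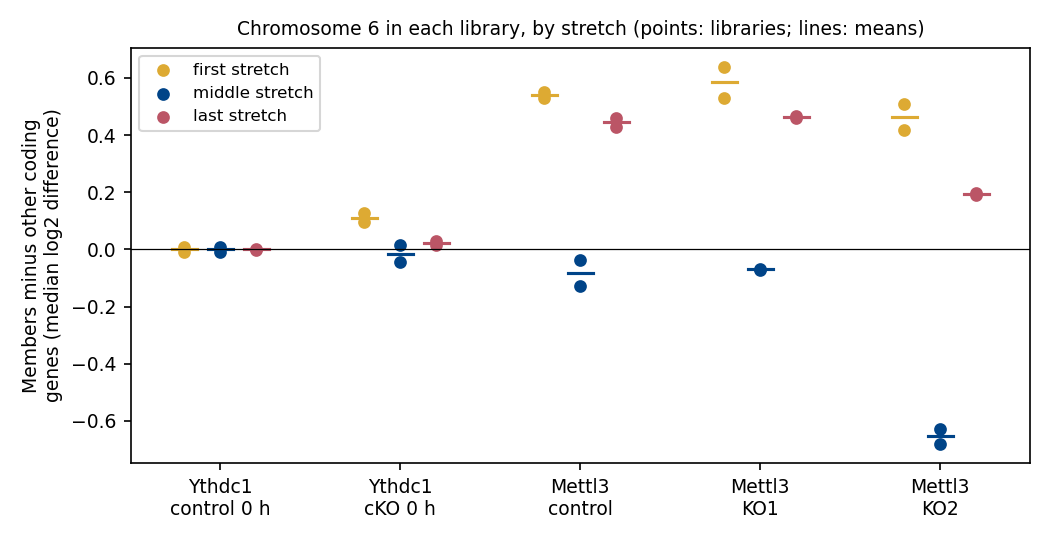
Median log2 level of members minus that of other coding genes in each of the 10 libraries at 0 h, relative to the Ythdc1 control mean, by stretch; points are libraries and short lines are means of 2. The KO2 points for the middle stretch are at -0.63 and -0.68, and those of the Mettl3 control at -0.13 and -0.04.

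Gene span, promoter letters and level were described for each stretch. The middle stretch's 274 members (tested or not) had a median gene span of 26220 bases, the first stretch 35276 and the last 25872. Promoters with CCAAT made up 32.4%, 25% and 23.5% of the matched members in the middle, first and last stretches. Among members above 32 CPM, the median change in KO2 was -0.69 in the middle stretch (80 of 87 fell), -0.26 in the first (26 of 38) and -0.32 in the last (121 of 155). The bounds were set on KO2 changes that include these members, so this contrast between stretches is no separate check of them. Over the whole chromosome, 84.3% of the 280 members above 32 CPM were below 0, beside 48.7% of other coding genes at that level. Members up to 8 CPM had a median of -0.34, with a spread between genes larger than that of the higher classes.

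Genes of RNA processing and translation on the chromosome were mostly lower in KO2. Each list count, here and below, is to be read beside the shares of members and of all genes. In KO2 with TMM scaling, 57.2% of members and 26.4% of all genes fell, and 13.0% and 24.4% rose. On the spike-in scale 6.69% of all genes fell and 56.7% rose in KO2, and the member shares are given above. In KO1 25.7% of members and 22.2% of all genes fell, and 30.2% and 23.9% rose. No list was tested against the rest of the chromosome, and a list's count includes the shift of the chromosome. Of 34 such members tested, 30 fell and 2 rose in KO2, with a median change of -0.48 (0.08 on the spike-in scale, where 9 fell and 15 rose), while in KO1 6 fell and 20 rose. Hnrnpa2b1, a nuclear RNA-binding protein that takes part in splicing, stood at 973 and 1003 CPM in the control, 1098 and 1074 in KO1, and 571 and 569 in KO2. Its change in KO2 was -0.79 (SE 0.03, edgeR adjusted p = 3.7e-39), and in KO1 0.13 (SE 0.03, edgeR adjusted p = 4.3e-05). Cct7, a subunit of the cytosolic chaperonin, was at 444 and 427 CPM in the control, 403 and 408 in KO1, and 208 and 205 in KO2, with a change in KO2 of -1.07 (SE 0.03). Both members were high in the control and KO1 and low in both KO2 libraries.

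The largest fall by p in that list was Luc7l2, a U1 snRNP-associated splicing factor. It was at 565 and 607 CPM in the control, 330 and 332 in KO1, and 161 and 147 in KO2. The change was -0.83 (SE 0.04) in KO1 and -1.93 (SE 0.04) in KO2, so it fell in both lines and further in KO2. Cnbp, a nucleic acid binding protein, moved in opposite directions: it was at 381 and 390 CPM in the control, rose to 553 and 555 in KO1 and fell to 301 and 294 in KO2, a fall that became a rise of 0.19 on the spike-in scale. Rpn1, a subunit of the oligosaccharyltransferase in the last stretch, was at 945 and 933 CPM in the control, 983 and 946 in KO1, and 693 and 700 in KO2 (log2 change -0.43, SE 0.03, or 0.13 on the spike-in scale).

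Chromatin regulators were also mostly lower in KO2. Of 22 tested, 16 fell and 2 rose in KO2 (median -0.39, or 0.17 on the spike-in scale, where 4 fell and 12 rose), and 6 fell and 8 rose in KO1. Ezh2, the catalytic subunit of polycomb repressive complex PRC2, was at 94.7 and 95.4 CPM in the control, 107 and 101 in KO1, and 64.9 and 64.9 in KO2. Its change in KO2 was -0.55 (SE 0.05, edgeR adjusted p = 5.1e-16), which on the spike-in scale was 0.01. Kdm3a, a histone H3 lysine 9 demethylase, was at 454 and 471 CPM in the control, 451 and 467 in KO1, and 222 and 223 in KO2. The KO1 levels of Kdm3a thus overlapped those of the control, and it fell by 1.06 on the log2 scale in KO2 (SE 0.03).

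Cbx3, which encodes the heterochromatin protein HP1 gamma and neighbours Hnrnpa2b1 head to head, was at 89.4 and 87.6 CPM in the control, 98.7 and 104 in KO1, and 40.1 and 38.5 in KO2. Smarcad1, a chromatin remodeller, rose from 270 and 290 CPM in the control to 379 and 366 in KO1 and fell to 170 and 167 in KO2. Chd4, the helicase of the NuRD complex, was 1 of the 2 that rose: it stood at 1098 and 1089 CPM in the control, 1572 and 1575 in KO1, and 1260 and 1231 in KO2. It rose in both lines, by 0.52 in KO1 and 0.19 in KO2 (SE 0.03 each). It lies in the last stretch, near Gapdh.

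Pluripotency and early embryo genes did not share 1 direction. Of 11 tested, 8 fell and 1 rose in KO2 (median -0.67, or -0.11 on the spike-in scale, where 4 fell and 4 rose), and 5 fell and 3 rose in KO1. Nanog was at 397 and 389 CPM in the control, 463 and 452 in KO1, and 249 and 245 in KO2. It rose by 0.22 in KO1 (SE 0.03, edgeR adjusted p = 3.3e-08) and fell by 0.67 in KO2 (SE 0.03, edgeR adjusted p = 2.7e-30). With spike-in scaling the changes of Nanog were 0.40 in KO1 and -0.11 in KO2 (edgeR adjusted p = 0.0092 in KO2). Gdf3, a TGF-beta family ligand that lies close to Nanog, was at 130 and 137 CPM in the control, 187 and 191 in KO1, and 199 and 206 in KO2, and so rose in both lines. Dppa3, a maternal factor between them, was at 11.4 and 10.6 CPM in the control, 8.90 and 11.5 in KO1, and 11.7 and 11.2 in KO2, and was not called in either line with TMM scaling. With spike-in scaling it rose in KO2 (0.62, edgeR adjusted p = 1.4e-05).

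**Figure D4:**
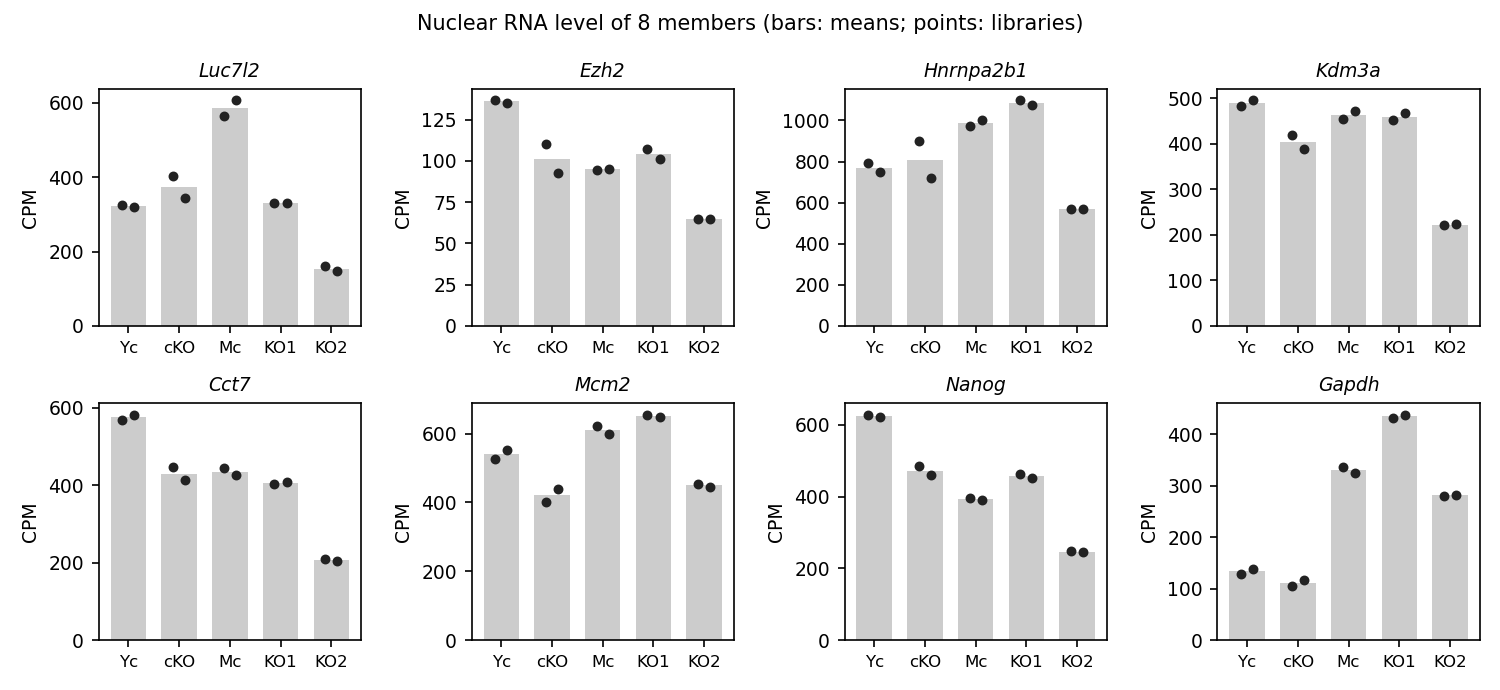
CPM (TMM scale) of 8 members in the 10 libraries at 0 h, in order of position; Yc is the Ythdc1 control, cKO the Ythdc1 cKO, Mc the Mettl3 control; points are libraries and bars are means from 0. In all 8 panels both KO2 points lie below both Mettl3 control points; for Gapdh they are 280 and 282 against 336 and 324.

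Enzymes of carbon metabolism were mostly lower in KO2 and mostly higher in KO1 than in KO2. Of 20 tested, 15 fell and 4 rose in KO2 (median -0.47, or 0.10 on the spike-in scale, where 4 fell and 8 rose), and 4 fell and 11 rose in KO1. Between the lines directly, 17 were higher in KO1 and 1 was lower, or 12 and 6 on the spike-in scale. The shares of all members were 54.0% and 11.8%, and those of all genes 24.5% and 21.6% (7.63% and 48.1% on the spike-in scale). Hk2, the hexokinase that starts glycolysis, was at 437 and 405 CPM in the control, 385 and 392 in KO1, and 180 and 186 in KO2, a fall of 1.20 on the log2 scale in KO2 (SE 0.04). Ldhb, a lactate dehydrogenase subunit in the last stretch, was at 154 and 144 CPM in the control, 207 and 218 in KO1, and 71.0 and 67.6 in KO2. It rose by 0.51 in KO1 and fell by 1.10 in KO2 (SE 0.04 and 0.05).

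Gapdh, a glycolytic dehydrogenase of the last stretch, was at 336 and 324 CPM in the control, 431 and 438 in KO1, and 280 and 282 in KO2. Its change was 0.40 (SE 0.03) in KO1 and -0.23 (SE 0.03) in KO2, the latter 0.33 on the spike-in scale. Tpi1, triosephosphate isomerase, was at 59.0 and 55.6 CPM in the control, 120 and 116 in KO1, and 52.3 and 51.0 in KO2, with a change in KO2 of 0.41 on the spike-in scale. Bcat1, which begins branched-chain amino acid breakdown, rose in both lines, from 221 and 226 CPM to 384 and 374 in KO1 and 319 and 327 in KO2.

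DNA replication and repair genes were mostly lower in KO2 with TMM scaling and mostly higher with spike-in scaling. Of 15 tested, 14 fell and 1 rose (median -0.32), while on the spike-in scale 1 fell and 11 rose (median 0.24), and in KO1 1 fell and 6 rose. Of all genes tested, 56.7% rose and 6.69% fell in KO2 on the spike-in scale. Mcm2, a subunit of the replicative helicase, was at 623 and 599 CPM in the control, 656 and 648 in KO1, and 455 and 444 in KO2. Its change in KO2 was -0.44 (SE 0.03), and on the spike-in scale 0.12. Ruvbl1, an AAA+ ATPase of chromatin remodelling complexes, rose from 99.0 and 96.2 CPM to 158 and 162 in KO1 and stood at 91.3 and 87.1 in KO2, which was 0.43 above the control on the spike-in scale. The 1 member of the list that rose in KO2 with TMM scaling was Cdca3, a cell division regulator, at 102 and 97.3 CPM in the control, 176 and 193 in KO1, and 138 and 141 in KO2.

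Growth factor and RAS-ERK genes moved both ways in KO2 with TMM scaling. On the spike-in scale most rose, as did 56.7% of all genes tested. Of 21 tested, 10 fell and 7 rose in KO2 (median -0.26), while on the spike-in scale 1 fell and 13 rose (median 0.30), and 6 fell and 4 rose in KO1. Lrp6, a WNT co-receptor, fell in both lines, from 438 and 438 CPM to 325 and 312 in KO1 and 290 and 295 in KO2. Its call in KO2 was lost on the spike-in scale (-0.02, edgeR adjusted p = 0.666). Wnt5b, a WNT ligand, rose in both, from 2.57 and 2.5 CPM to 22.2 and 21 in KO1 and 20.3 and 18.3 in KO2.

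Of the imprinted genes, Mest fell in both lines and Peg10 moved in opposite directions in KO1 and KO2. Mest, expressed from the paternal allele and located at the start of the middle stretch, was at 131 and 139 CPM in the control, 68.5 and 72.8 in KO1, and 27.0 and 27.0 in KO2. It fell by 0.94 in KO1 and by 2.33 in KO2 (SE 0.05 and 0.06). Peg10, a retrotransposon-derived imprinted gene in the first stretch, was at 177 and 186 CPM in the control, 149 and 142 in KO1, and 272 and 282 in KO2, so it fell in KO1 and rose in KO2 (0.61, SE 0.04). Over the list, 4 of 11 tested fell and 1 rose in KO2 (median -0.16), and 6 fell in KO1. In KO2 with spike-in scaling, 2 fell and 4 rose (median 0.40).

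The HoxA cluster and its neighbour Evx1, at low levels throughout, had 7 tested members, of which 2 fell and 1 rose in KO2 (median -0.13). Evx1 and Hoxa3 were the members that fell, and Hoxa9 was the 1 that rose. On the spike-in scale the calls of Evx1 (edgeR adjusted p = 0.12) and Hoxa3 (0.059) were lost, and 3 members rose (median 0.43). None of these 3 calls held without each library: Evx1 was lost without control replicate 2 (edgeR adjusted p = 0.18) or KO2 replicate 2 (0.176), Hoxa3 without control replicate 1 (0.189) or KO2 replicate 2 (0.092), and Hoxa9 without control replicate 1 (0.068).

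Beyond the lists, the members with the largest changes in KO2 came from all stretches. Stra8, a gene of meiotic entry in the middle stretch, was at 8.70 and 9.10 CPM in the control, 7.15 and 7.92 in KO1, and 0.82 and 0.94 in KO2, a fall of 3.34 on the log2 scale (SE 0.22). Foxp1, a forkhead transcription factor in the last stretch, was at 30.7 and 30.4 CPM, 36 and 35.7, and 6.99 and 7.93 in the same order. Cttnbp2, which encodes a cortactin-binding protein and lies in the first stretch, rose in both lines, from 8.56 and 8.42 CPM to 31.9 and 35.4 in KO1 and 34.5 and 33.8 in KO2. Trh, the precursor of thyrotropin-releasing hormone, rose in KO1 from 68.8 and 66.5 CPM to 409 and 407 (log2 change 2.59, SE 0.04) and was at 69.8 and 69.1 in KO2. Single members therefore departed from the chromosome's median by several log2 units in both directions.

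Markers of other cell types on the chromosome were low or moved both ways. Of 16 tested, 6 fell and 2 rose in KO2 (median -0.29), and 3 fell and 2 rose in KO1, where 22.2% of all genes fell and 23.9% rose. Scaled to spike-in reads, 2 fell and 5 rose in KO2 (median 0.26). Marker levels here are scaled over all 18 libraries. Col1a2, a fibrillar collagen that is also a fibroblast marker, was at 83.3 and 71.5 CPM in the control, 65.8 and 64.1 in KO1, and 179 and 175 in KO2, and at 1.78 and 1.26 in the Ythdc1 control. The 10 fibroblast feeder markers examined summed to 2982 and 3018 CPM in the Mettl3 control, 4693 and 4699 in KO1, 5251 and 5415 in KO2, and 2561 and 2722 in the Ythdc1 control, most of it Fn1. Without Fn1 the other 9 summed to 308 and 292 CPM in the Mettl3 control, 343 and 341 in KO1, 647 and 650 in KO2, and 69.8 and 73.7 in the Ythdc1 control. The sum without Fn1 was thus high in both KO2 libraries and low in both Ythdc1 controls. Dcn, Lum and S100a4 were below 1 CPM in every library, and 0 to 2 of the 10 were at 0 in a Mettl3 library. The summed stem cell markers, Nanog included, were 2681 and 2625 CPM in the Mettl3 control, 3446 and 3437 in KO1, and 2167 and 2110 in KO2. Their part in the chromosome 6 differences was not tested.

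Genes of chromosome 6 that are no members also had medians below 0 in KO2. The 413 other tested genes, mostly noncoding, had a median of -0.50, against -0.02 for 6169 such genes of other chromosomes. The 19 coding genes left out by symbol had a median of -1.07, of which 18 fell, against 0.01 for 517 such genes elsewhere. In KO1 the medians were -0.28 for the 413 genes, against -0.17 elsewhere, and -0.32 for the 19, of which 10 fell, against 0.21 elsewhere. Unlike the members, whose median in KO1 was 0.01, both sets thus lay below 0 there. Families of near-identical genes such as Zfp and Rpl can share reads with their copies, so their values are uncertain.

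The controls of the 2 experiments differed over the chromosome, and experiment and line cannot be told apart in that comparison. In the Mettl3 control against the Ythdc1 control at 0 h, 349 of 718 members were higher and 184 lower. These were 48.6% and 25.6%, against 38.3% and 29.1% of all 22795 genes tested. On the spike-in scale the shares were 68.3% and 11%, beside 57.7% and 14.1% of all genes. The median of members exceeded that of coding genes elsewhere by 0.30 (SD 0.006, n = 2). By stretch, the medians were 0.62, -0.03 and 0.49. Reads outside annotated genes made up 39.8% and 40.4% of the reads in genes, in none or ambiguous between them in the Mettl3 control and 50.1% and 49.7% in the Ythdc1 control, and the part of that gap in the difference was not tested.

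Some of the large single differences between the controls were of genes near 0 in 1 of them. Vmn1r47, a vomeronasal receptor gene, was at 12.5 and 15.1 CPM in the Mettl3 control with 0 counts in both Ythdc1 controls, at least 97.9-fold higher when 3 counts over both libraries are taken as the floor. Hpgds, a prostaglandin D synthase, was at 12.6 and 14.4 CPM in the Mettl3 control and at 0.11 and 0 in the Ythdc1 control. In the other direction, A2m, a protease inhibitor, was at 22.3 and 17.8 CPM in the Mettl3 control and 178 and 179 in the Ythdc1 control. Nanog was lower in the Mettl3 control than in the Ythdc1 control (628 and 622 CPM; log2 change -0.67, SE 0.05), and Gapdh was higher (129 and 138 CPM in the Ythdc1 control; 1.30, SE 0.06). Nanog and Gapdh thus moved in opposite directions between the controls though they lie in the same stretch.

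**Figure D5:**
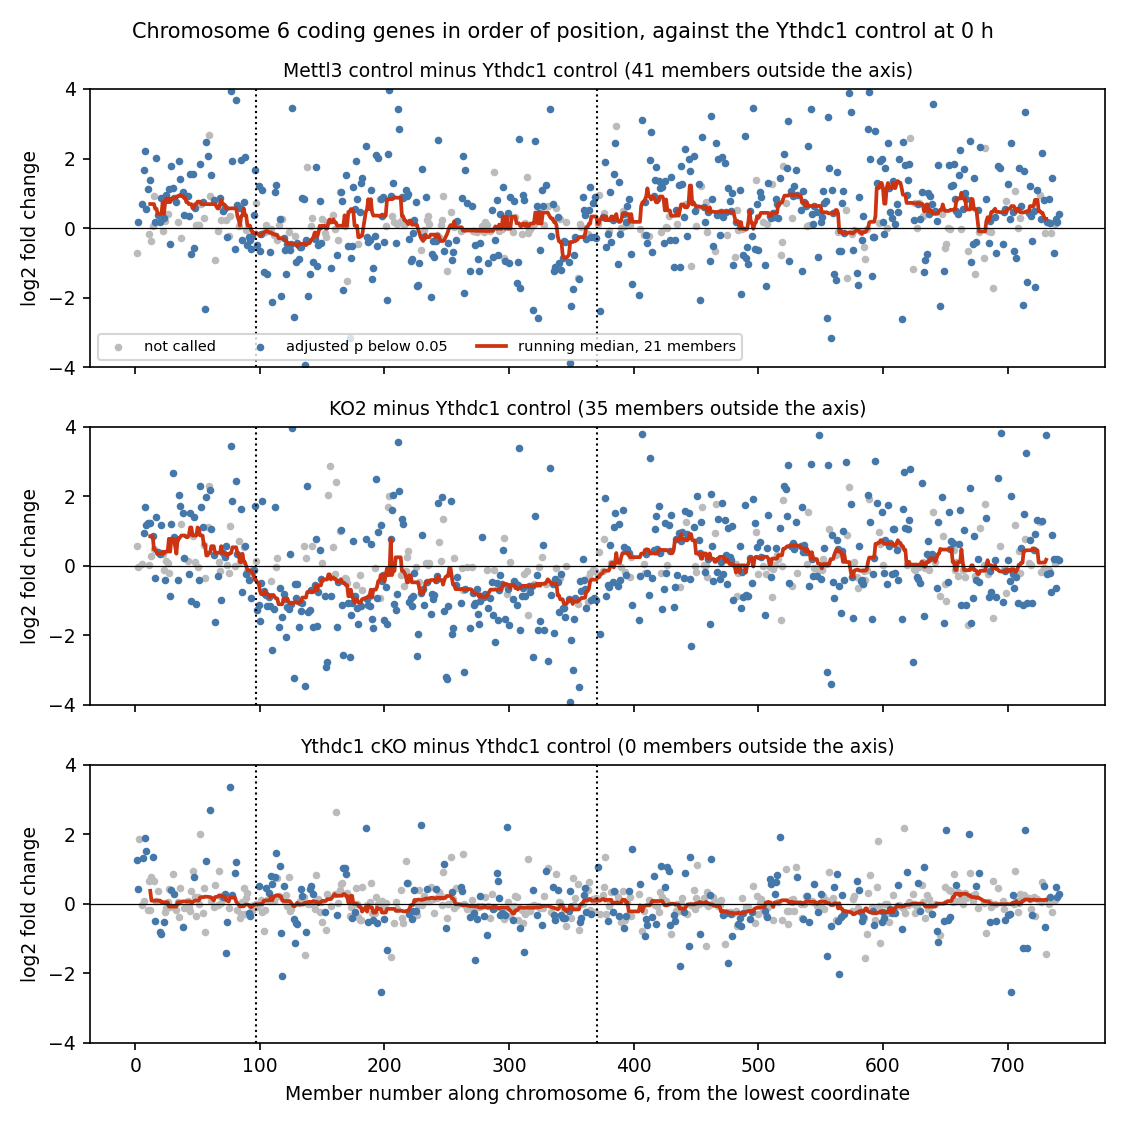
Log2 fold change (TMM scale) of members in order of position against the Ythdc1 control at 0 h, for the Mettl3 control, KO2 and the Ythdc1 cKO; colours and lines as in the profile of the Mettl3 libraries, and members beyond 4 are counted in each title. The running median is above 0 at both ends and near 0 in the middle for the Mettl3 control, below 0 in the middle for KO2, and near 0 throughout for the cKO.

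Against the Ythdc1 control, the lines kept their order. KO1 had 352 members higher and 158 lower, 49.0% and 22.0%, beside 37.2% and 28.1% of all genes. KO2 had 242 higher and 276 lower, 33.7% and 38.4%, beside 36.7% and 29.5%. The median difference from other coding genes was 0.29 (SD 0.036) in KO1 and -0.09 (SD 0.024) in KO2. By stretch the medians were 0.75, -0.02 and 0.53 in KO1 and 0.50, -0.67 and 0.21 in KO2. Without replicate 1 of the Ythdc1 control, the KO2 difference was -0.04. Scaled to spike-in reads, 75.9% of members were higher and 6.13% lower in KO1, beside 64.3% and 9.65% of all genes. In KO2 these shares were 74.8% and 7.52%, beside 74.9% and 5.77% of all genes. These comparisons share the Ythdc1 control libraries, so their values stand side by side and are not independent.

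Within the Ythdc1 experiment the chromosome showed no such profile. Ythdc1 itself was at 149.2 and 136.6 CPM in the control and 144.6 and 121.3 in the cKO at 0 h, so the groups overlapped. It was at 54.2 and 52.2 CPM against 14.9 and 15.6 in the cKO at 3 h, and 52.0 and 48.1 against 20.3 and 19.6 at 6 h. Counts over the whole gene do not show whether its transcript is functional. In the cKO against the control at 0 h, 101 of 626 tested members were higher and 125 lower. These were 16.1% and 20%, beside 13.5% and 15.8% of 17900 genes tested and 14.5% and 19.3% of coding genes elsewhere. The difference in medians from coding genes elsewhere was 0.01 (SD 0.027, n = 2), within the spread between libraries. The medians of the stretches were 0.09, -0.02 and -0.01. Without replicate 2 of the control, the share lower was 13.2%. Scaled to spike-in reads, 5.59% of members were higher and 50.2% lower, beside 4.41% and 42.3% of all genes.

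After 6 h of actinomycin D, which stops transcription, the Ythdc1 control held 217 members higher than at 0 h and 182 lower. These were 34.7% and 29.1%, beside 33.1% and 31.7% of all genes. The median of members was 0.04 below that of coding genes elsewhere (difference -0.04, SD 0.009), and the stretches had medians of 0.11, 0.06 and 0.19. The difference was -0.01 without replicate 2 of the control at 0 h, -0.02 without either cKO library at 0 h, and 0.02 over members that overlap no other gene. On the spike-in scale the change of the typical gene was shifted by -0.92. There 7.83% of members were higher and 63.3% lower, beside 7.33% and 63% of all genes. The values with TMM scaling therefore order nuclear RNAs by how they held up relative to each other.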

How the data were processed

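Per the labels' protocols, nuclear RNA of cultures grown for 48 h received ERCC spike-in RNA before ribosomal RNA removal, and libraries were made with a stranded SMARTer kit. What the authors deposited are raw HTSeq read counts, not normalized. The submitters' processing notes name CASAVA, Trimmomatic 0.38, HISAT2 2.1.0, HTSeq and mm10; for the strand setting and gene models these sources give nothing. The series table and the 18 sample files held the same counts (0 cells differing). Of 54446 gene identifiers, 54409 were found in GENCODE M21 without version. Spike-in reads numbered 3932 to 33396 per library, and reads in no gene, 18.0% to 53.6% of the reads in genes, in none or ambiguous between them, stayed out of library sizes. Libraries of a group differed beyond counting noise (chi-square over degrees of freedom 1.75 to 6.72).

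Counts were fitted with edgeR 4.0.16 (R 4.3.3; TMM, default filter with a minimum of 10 reads, robust quasi-likelihood F test), 1 coefficient per group, in 3 fits: 6 Mettl3 libraries, 10 libraries at 0 h and 12 Ythdc1 libraries (705, 718 and 626 members tested). SE is the change divided by the square root of F. Levels of members at 0 h come from the fit of 10 libraries and Mettl3 changes from that of 6. Levels of Mettl3, Ythdc1 and cell type markers are scaled over all 18 libraries. The procedure was tested on simulated data. Motifs were searched on both strands. Sequences came from RefSeq (GRCm38.p6), using the start site listed at the top for each gene.

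The members, gene lists and comparisons were chosen with earlier results of these data known. Genes named always were Nanog, Dppa3, Gapdh, Ezh2 and Chd4, with those at the chromosome's ends and splits, the 5 highest and 5 lowest called changes with a mean of at least 50 counts and no overlap between libraries in each of 4 comparisons, and the 3 called list members with the smallest p; the text shows a selection, and some genes of this rule are not reported here. The alternatives were DESeq2 1.42.0 size factors, library size alone, spike-in scaling, TMM without chromosome 6, the DESeq2 Wald test, no filter, 50 reads in 2 libraries, a replicate block, 18 libraries in 1 fit, each library left out, 3 other member sets, bins of 5 and 20 Mb and other split minimums.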

Additional observations from a re-analysis of the deposited data

Results flagged for a closer look

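KO1 and KO2, which are labelled as knockouts of the same gene, differed from each other over chromosome 6 when compared directly: 381 of 705 tested members were higher in KO1 and 83 were lower (edgeR quasi-likelihood test, adjusted p below 0.05), against 24.5% and 21.6% of all genes. The log2 difference, KO1 minus KO2, was 0.89 for Nanog, 0.63 for Gapdh, 0.68 for Ezh2 and 0.33 for Chd4, with no overlap between the libraries of the lines for any of these 4 genes. On the spike-in scale the difference was 0.51 for Nanog, 0.25 for Gapdh, 0.30 for Ezh2 and -0.05 for Chd4, and Chd4 was not called. There the median of members was 0.02, beside -0.38 for all genes tested. In the first, middle and last stretch 15, 122 and 81 members were higher in KO1 on that scale, and 39, 42 and 124 were lower. Of all genes, 7.63% were higher and 48.1% lower.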

How the results depend on the processing

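Each line is represented by 2 libraries, and DNA was not measured. The difference between the medians of members and other coding genes kept its sign in every comparison under the 4 scalings. A scaling moves all genes of a comparison by nearly the same amount, so this is no check of that difference. The largest difference (KO2 against the Mettl3 control) ran from -0.386 to -0.371 when each library was left out. Spike-in scaling moved the shares of members called, as given beside each comparison: KO1 against the control 14.5% lower, KO2 42.7% higher and 17.6% lower, KO1 against KO2 30.9% and 29.1%, between the controls 11% lower, KO1 and KO2 against the Ythdc1 control 75.9% and 6.13% and 74.8% and 7.52%, cKO 5.59% and 50.2%, and 6 h of drug 7.83% and 63.3%. The cause of the other moves was not tested.

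With a filter of 50 reads in 2 libraries the difference in medians was -0.034 for KO1, -0.390 for KO2, 0.399 between the lines, 0.285 between the controls, -0.120 for KO2 against the Ythdc1 control and -0.021 for 6 h. In 1 fit of all 18 libraries it was 0.286 between the controls and -0.026 for 6 h, and with no filter 0.313 between the controls. Over members that overlap no other gene it was -0.033 for KO1, -0.469 for KO2, 0.379 between the lines, 0.323 between the controls, 0.331 for KO1 against the Ythdc1 control, and 0.024 for 6 h, where the sign turned. With Zfp, Hist, Rpl and Rps genes included it was -0.406 for KO2, 0.378 between the lines and -0.046 for 6 h. Over members with 50 counts in 2 libraries it was 0.410 between the lines, 0.233 between the controls and -0.156 for KO2 against the Ythdc1 control.

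The gap between the highest and lowest bin medians in 5 and 20 Mb bins was 0.674 and 0.137 for KO1, 0.712 and 0.504 for KO2, 1.13 and 0.375 between the lines, 1.71 and 0.876 between the controls, and 1.502 and 0.892 (KO1) and 2.17 and 1.49 (KO2) against the Ythdc1 control. The middle stretch minus the rest, over members above 32 CPM (chosen after seeing the data), was 0.019 for KO1, -0.375 for KO2, 0.436 between the lines, and -0.577 for the Mettl3 control, -0.459 for KO1 and -0.907 for KO2 against the Ythdc1 control. The stretch was set on the KO2 change from the Mettl3 control, so these values are no separate check of it.

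Leaving out each library in turn gave differences in medians from -0.049 to -0.016 for KO1, 0.359 to 0.375 between the lines, 0.294 to 0.332 between the controls, 0.269 to 0.309 (KO1) and -0.110 to -0.044 (KO2) against the Ythdc1 control, -0.003 to 0.030 for the cKO and -0.048 to -0.013 for 6 h. The share of members called lower in the cKO ran from 13.2% to 19.97%.

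Of 113 results for named genes, 92 kept direction and call under all alternatives run for them. Under spike-in scaling the log2 change turned to 0.023 for Bicd1 in KO1; to 0.33 for Gapdh, 0.013 for Ezh2, 0.35 for Bicd1, 0.094 for Aplf, 0.10 for Plxna1 and 0.12 for Mcm2 in KO2; to -0.05 for Chd4 and -0.32 for Bicd1 between the lines; and to 0.029 for Ezh2 between the controls. On that scale calls were lost for Bcl2l14 in KO1, for Mat2a, Lrp6, Evx1 and Hoxa3 in KO2 and for Dppa3 between the controls, and Dppa3 gained calls in KO2 (0.62) and between the lines (-0.56).

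Same-numbered libraries shared only a number (correlations of their deviations from -0.034 to -0.005 in the Mettl3 libraries and 0.001 to 0.043 in the Ythdc1 libraries). With the replicate number as a block, the difference in medians was -0.383 for KO2 and -0.022 for KO1, and 56.7% of members were lower in KO2.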
